A study of Mus musculus with 4 samples.

Results

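The genes described here are 35 genes of the amino acid stress response, chosen by name with earlier results of these data known. By role they are 9 stress regulators and their targets, 8 enzymes of amino acid and one-carbon synthesis, 6 amino acid transporters and 12 cytosolic tRNA synthetases. All array probes listed under these symbols were taken, and 49 of 57 probes had a detection p-value under 0.05 on at least 2 of 4 arrays. They measured 29 of the 35 genes, among 9948 genes in all. Each of the 29 was read by a brightest probe that was detected on all 4 arrays. Pycr1, Slc7a5 and Mars had no probe under those symbols, and the probes of Psph, Slc7a1 and Cars did not pass the detection filter. The probe listed under Mars1, the newer symbol of Mars, had a log2 difference of -0.21 (FLT3-ITD minus pMIG, SE 0.16, adjusted p = 0.548 in limma) and is not counted among the members.

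Both groups were mouse lineage-negative bone marrow cells (labelled Lin– and WT, wild type), that is, marrow depleted of cells with markers of mature blood lineages. In 2 samples, taken after 48 h of signalling, the cells expressed FLT3-ITD, the leukaemia-associated form of the FLT3 receptor kinase in which a stretch of the protein is duplicated in tandem. The other 2 samples held the empty vector pMIG, for which no time is labelled. The labels give no age, strain or sex. They also leave unsaid whether replicates were separate animals or cultures, and the p-values therefore reflect only the spread between samples, which may be technical.

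The amino acid arm of the integrated stress response starts with phosphorylation of the translation factor eIF2, which the kinase encoded by Eif2ak4 carries out when uncharged tRNA accumulates. Bulk translation then falls while translation of the Atf4 mRNA rises, so that the transcription factor ATF4 accumulates largely without a change in its transcript. ATF4 binds C/EBP-ATF response elements in genes that make, import and charge amino acids, and in regulators such as Ddit3 and Trib3. Some of these regulators restrain growth or promote cell death.

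The medians of the members varied with role, and differences between the roles were not tested. On the log2 scale, the difference between FLT3-ITD and pMIG had a median of 0.46 over the 9 stress regulators and their targets and of 0.33 over the 4 measured transporters. The transporter median moved with single arrays and probes, to 0.20 without FLT3-ITD replicate 1 or with the mean of probes and to 0.47 without FLT3-ITD replicate 2, and it includes Slc38a2, whose probes were opposed. The median was -0.09 over the 6 synthesis enzymes and 0.02 over the 10 tRNA synthetases, against -0.02 over all genes tested. In limma, with adjustment over all genes, 0 of 29 members passed an adjusted p of 0.05, where 0.201% of all genes did. At an unadjusted p under 0.05, 8 members were higher (27.6%) and 0 lower, against 8.93% of all genes higher and 9.09% lower. The smallest adjusted p among the members was 0.113, for Slc7a11.

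The call depended on how limma shared the spread between genes. With a variance trend and a robust fit, 9 members passed as higher (31.0%, against 5.19% of all genes) and 1 as lower (3.45%, against 5.28%). The 9 were Ddit3, Ddit4, Trib3, Chac1, Sesn2, Nupr1 and Vldlr, of the stress regulators and their targets, and the transporters Slc7a11 and Slc38a2. The lower one was Atf4. None of the 6 synthesis enzymes or 10 tRNA synthetases passed with that fit either. Both FLT3-ITD arrays lay above both pMIG arrays for 14 of 29 members, or 48.3%, against 23.8% of all genes. They lay below both for 6 members, or 20.7%, against 26.8%. With 2 arrays in each group, the smallest p an exact permutation test can give is 0.333.

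**Figure D1:**
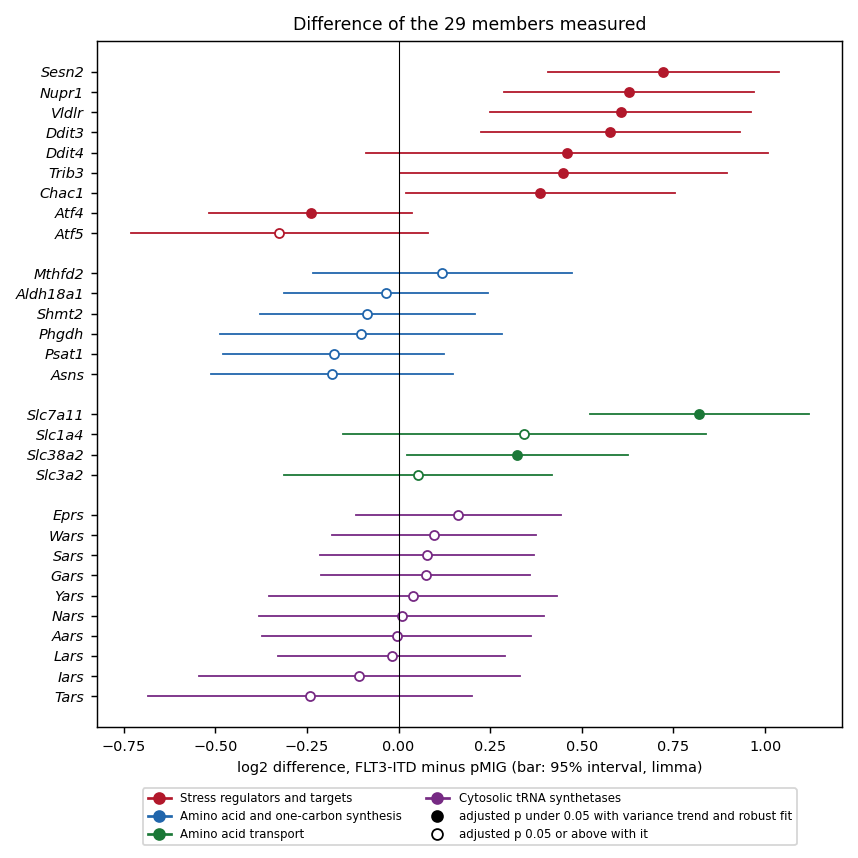
Log2 difference of each of the 29 measured members, FLT3-ITD minus pMIG, with its 95% interval in limma, grouped by role. Filled points passed with a variance trend and robust fit. They lie among the stress regulators and their targets and the transporters, while the 10 tRNA synthetases lie between -0.24 and 0.16.

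The arrays each read 26512 probes, of which 51.47% to 53.47% were detected. The correlation across genes, which are no independent replicates, was 0.992 between FLT3-ITD arrays, 0.991 between pMIG arrays and 0.985 to 0.986 between the groups. In bulk samples, fewer cells of a type and less RNA per cell cannot be told apart, and cell type markers moved beside the members. The mean log2 signal of 6 measured B lymphoid markers, of 10 listed, was 7.34 and 7.47 in FLT3-ITD, against 6.33 and 6.47 in pMIG. For 9 dendritic and MHC class II markers it was 8.27 and 8.38 in FLT3-ITD and 7.60 in both pMIG arrays. For 10 mast cell and basophil markers it was 8.95 and 8.99 in FLT3-ITD, against 9.51 and 9.60 in pMIG, and for 9 megakaryocyte and platelet markers 7.31 and 7.30 in FLT3-ITD, against 8.07 and 8.06 in pMIG. The means of 8 erythroid and 6 monocyte and macrophage markers differed by 0.12 and 0.25. The erythroid markers were opposed, 4 higher and 4 lower, from -0.64 to 1.29. With the trend and robust fit 2 of the 8 passed as higher (25%, against 5.19% of all genes) and 0 as lower. The monocyte and macrophage markers ran from -0.20 to 0.93 (median 0.12), and 2 of the 6 passed as higher (33.3%) and 0 as lower. The mean of 13 neutrophil markers differed by 0.12 and their median by 0.03, but the markers were opposed. With the trend and robust fit 3 passed as higher (23.1%, against 5.19% of all genes) and 6 as lower (46.2%, against 5.28%). Of 4 T and NK markers Klrd1 was higher by 1.89 and 3 were lower, so that the mean differed by 0.26 and the median by -0.20. That of 7 progenitor markers differed by -0.43, with Kit without a probe under that symbol and Erg below the detection filter. Of other defining markers Pax5, Flt3, Xcr1, Alas2, Ccr2, Cd3e, Cd3g, Cd4, Cd8a and Ncr1 were below the detection filter, and where the Flt3 probe lies relative to the vector insert is not known here. The part of these markers in the members' differences was not tested.

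To show which members carry the ATF4-type element near their start, the promoter windows of RefSeq (build GRCm38.p6, 250 bases before to 50 after an annotated start) were searched on both strands for its core TGATGNAA, which reads TTNCATCA on the opposite strand. A window was held for 29 of the 35 members, and 13 of these (44.8%) contained a match, against 1219 of 27025 genes (4.51%). A match is a description of these letters, not evidence of a bound site. The matches were spread over the roles. Of members with a window, 4 of 9 stress regulators and their targets and 2 of 8 synthesis enzymes held one. So did 2 of 5 transporters and 5 of 7 tRNA synthetases. The stretches around the matches of 5 members that passed as higher with the variance trend and of 3 that did not are shown next, each on the strand of its gene, with the match in capitals.
Trib3 (chr2:152344019-152344066, minus strand): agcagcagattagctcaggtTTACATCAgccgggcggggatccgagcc
Chac1 (chr2:119351029-119351076, plus strand): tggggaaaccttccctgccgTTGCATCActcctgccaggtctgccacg
Nupr1 (chr7:126625553-126625600, minus strand): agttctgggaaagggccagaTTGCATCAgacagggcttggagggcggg
Vldlr (chr19:27216800-27216847, plus strand): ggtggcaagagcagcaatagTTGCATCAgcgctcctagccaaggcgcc
Slc7a11 (chr3:50443633-50443699, minus strand): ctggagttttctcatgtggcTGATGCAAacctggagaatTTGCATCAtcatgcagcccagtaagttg
Asns (chr6:7693205-7693252, minus strand): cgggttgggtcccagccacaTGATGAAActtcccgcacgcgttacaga
Gars (chr6:55037951-55037998, plus strand): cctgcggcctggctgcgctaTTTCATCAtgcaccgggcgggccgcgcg
Tars (chr15:11399646-11399693, minus strand): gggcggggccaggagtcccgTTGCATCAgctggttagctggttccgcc

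In Slc7a11 the window held matches on both strands, beginning 66 and 47 bases before the annotated start. That start lies 55474 bases inside the gene's annotated span, and the Vldlr start used lies 540 bases inside its span. In Nupr1 the match began 110 bases before the start and in Chac1 193 bases before it. In Trib3 it began after the start, at base 15 when the start is counted as base 1. The window of Aars held 2 matches, and those of Iars, Yars, Slc1a4 and Pycr1 held 1 each. The start used lies 6064 bases inside the annotated span for Aars and 169 bases inside it for Yars. The windows of Ddit3, Ddit4, Sesn2, Slc38a2 and Atf4 held none, which says only that these letters are not in those 300 bases. Among the 26 measured members with a window, the 12 with a match had a median difference of 0.21 (from -0.24 to 0.82) and the 14 without one a median of 0.07 (from -0.32 to 0.72). With the variance trend and robust fit, 5 of the 12 and 5 of the 14 passed as higher or lower. Over all genes, 5.19% passed as higher and 5.28% as lower with that fit.

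**Figure D2:**
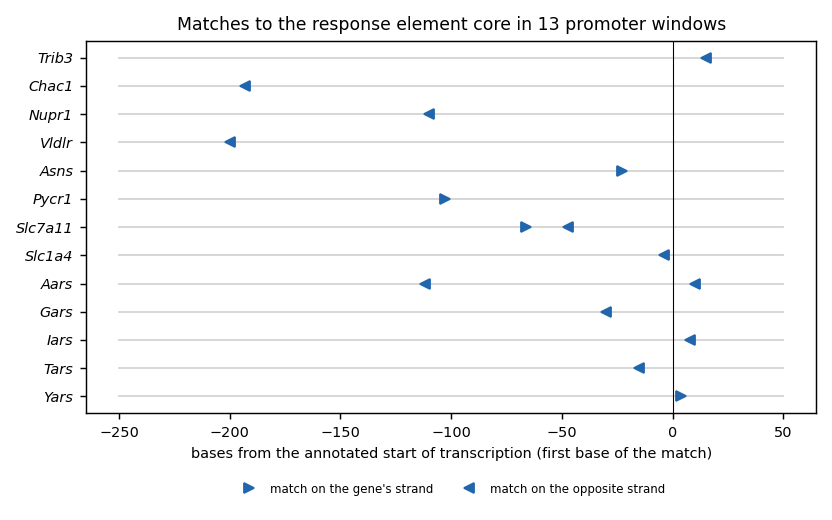
Position of each match to the response element core in the 13 windows that held one, in bases from the annotated start of transcription, with the window as a grey line. Positions after the start count the start as base 1. Slc7a11 and Aars hold 2 matches each, and the rest hold 1.

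The transcription factor genes at the head of the response were not higher in FLT3-ITD. Atf4, which encodes the central activator, had a log2 signal of 11.59 and 11.56 in FLT3-ITD, against 11.81 and 11.81 in pMIG. The difference was -0.24 (SE 0.11, 95% interval -0.52 to 0.04, adjusted p = 0.322 in limma), and it passed with the variance trend and robust fit (adjusted p = 0.0377). The replicates lay close together and the groups were apart on this probe. A second, also well detected Atf4 probe read 10.33 and 10.39 in FLT3-ITD, against 10.48 and 10.31 in pMIG. On that probe the groups overlapped and the difference was -0.04. Atf5, which encodes a related factor whose mRNA is also controlled in translation, read 8.07 and 7.86 in FLT3-ITD, against 8.15 and 8.42 in pMIG. Its difference of -0.32 did not pass with either fit (adjusted p = 0.352, and 0.12 with the trend and robust fit).

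Of the 9 stress regulators and their targets, 7 read higher on both FLT3-ITD arrays than on both pMIG arrays on their brightest probe. They differed by 0.39 to 0.72 on the log2 scale. That is 77.8% of the list, against 23.8% of all genes. The other 2, Atf4 and Atf5, read lower on both (22.2%, against 26.8%). Sesn2, which encodes sestrin 2, a restraint on mTORC1 when leucine is scarce, read 6.58 and 6.41 in FLT3-ITD, against 5.77 and 5.77 in pMIG. That is 1.65-fold (difference 0.72, SE 0.12, adjusted p = 0.126, and 0.0311 with the trend and robust fit). A second, dim Sesn2 probe was detected on both FLT3-ITD arrays and on neither pMIG array. It was thus kept only through the FLT3-ITD arrays, and its direction is no separate support. It read 4.64 and 4.97 in FLT3-ITD, against 4.23 and 4.21 in pMIG. In the fits over all detected probes it did not pass (adjusted p = 0.213 in limma, and 0.226 with the trend and robust fit). Its FLT3-ITD mean was 1.39-fold the lowest detected signal of the pMIG arrays. The Sesn2 difference depended on the background step, as it was 0.34 with none.

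Nupr1, which encodes a small stress-induced nuclear protein, read 8.77 and 8.65 in FLT3-ITD, against 7.98 and 8.18 in pMIG. The difference was 0.63 (1.55-fold, SE 0.13, adjusted p = 0.154). Of all the members it had the smallest adjusted p with the variance trend and robust fit, 0.000492. Vldlr, which encodes the very low density lipoprotein receptor, read 7.57 and 7.70 in FLT3-ITD, against 7.14 and 6.92 in pMIG, a difference of 0.61 (1.52-fold, SE 0.13, adjusted p = 0.164). Its other kept probes differed by 0.52 and 0.90, with the groups apart on both. They were thus alike in direction and differed in size.

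Ddit3 encodes CHOP, a transcription factor of the stress response linked to cell death. It read 7.67 and 7.51 in FLT3-ITD, against 6.91 and 7.11 in pMIG, a difference of 0.58 (1.49-fold, SE 0.13, adjusted p = 0.172). Without background correction the difference was 0.38. Its second probe read 6.63 and 5.94 in FLT3-ITD, against 6.03 and 6.0 in pMIG. There the groups overlapped, since FLT3-ITD replicate 2 lay below both pMIG arrays.

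Trib3, which encodes a pseudokinase that binds ATF4 and dampens its activity, read 8.85 and 8.59 in FLT3-ITD, against 8.11 and 8.43 in pMIG. The difference was 0.45 (1.37-fold, SE 0.17, adjusted p = 0.276), and it was 0.23 as the mean of its 3 kept probes. Its other probes, both dim, differed by 0.35 and -0.09. Ddit4, which encodes the mTORC1 inhibitor REDD1, read 9.12 and 8.86 in FLT3-ITD, against 8.29 and 8.77 in pMIG, a difference of 0.46 (SE 0.21, adjusted p = 0.333). For both genes pMIG replicate 2 was the closer to FLT3-ITD. Without pMIG replicate 1 the difference of Ddit4 was 0.22 and that of Trib3 0.29, and without pMIG replicate 2 that of Ddit4 was 0.70. Chac1, which encodes an enzyme that degrades glutathione, read 9.35 and 9.46 in FLT3-ITD, against 9.15 and 8.89 in pMIG, a difference of 0.39 (SE 0.14, adjusted p = 0.261). With the variance trend and robust fit the adjusted p was 0.0166 for Trib3, 0.0165 for Ddit4, 0.0153 for Chac1, 0.0137 for Ddit3 and 0.00917 for Vldlr.

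**Figure D3:**
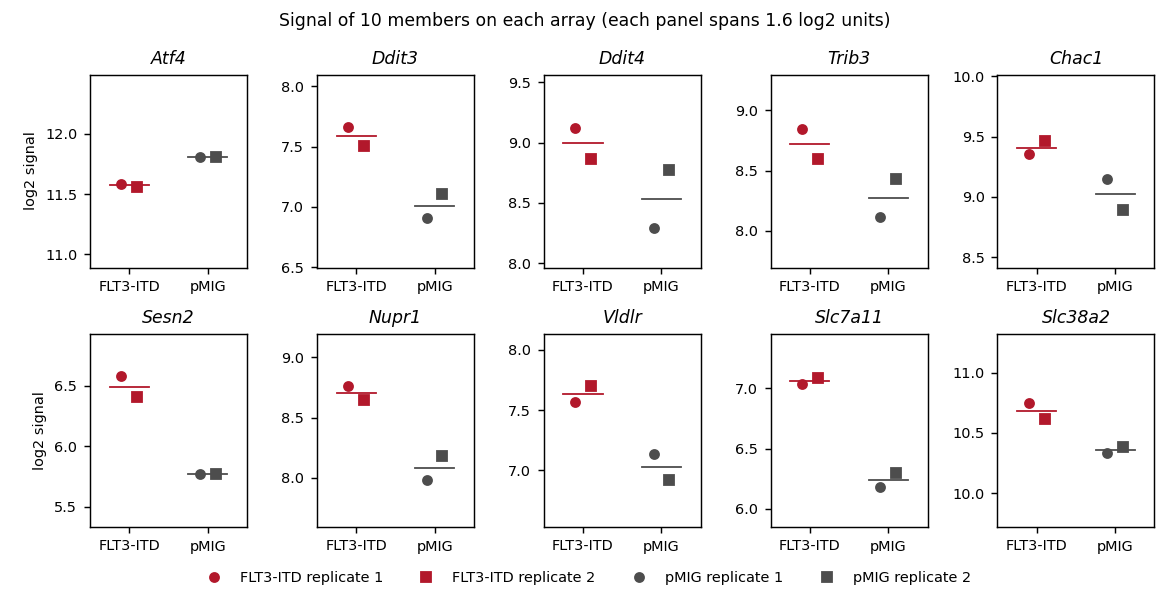
Log2 signal on each array for the 10 members that passed with the variance trend and robust fit, with FLT3-ITD on the left and pMIG on the right of each panel; circles and squares are replicates 1 and 2, lines are group means, and every panel spans 1.6 log2 units. Atf4 is the 1 gene of the 10 that is lower in FLT3-ITD, and Ddit4 and Trib3 have the pMIG arrays farthest apart.

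Of the transporters, Slc7a11 differed most. It encodes the cystine and glutamate exchanger xCT, which supplies cysteine for glutathione, and read 7.04 and 7.08 in FLT3-ITD, against 6.18 and 6.30 in pMIG. The difference of 0.82 (1.77-fold, SE 0.11, 95% interval 0.52 to 1.12, adjusted p = 0.113) was larger than the gaps between replicates in either group. It passed with the variance trend and robust fit (adjusted p = 0.0031), and was 0.46 without background correction. Slc3a2, which encodes the heavy chain that pairs with xCT and with other light chains, read 6.69 and 6.42 in FLT3-ITD, against 6.54 and 6.47 in pMIG. The groups overlapped, and the difference was 0.05 (95% interval -0.31 to 0.42).

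The probes of Slc38a2, the gene of the neutral amino acid transporter SNAT2, were opposed. The brightest read 10.75 and 10.62 in FLT3-ITD, against 10.34 and 10.38 in pMIG, a difference of 0.32 (SE 0.11, adjusted p = 0.255, and 0.012 with the trend and robust fit). A second well detected probe read 7.88 and 7.96 in FLT3-ITD, against 8.38 and 8.27 in pMIG, and thus lower in FLT3-ITD by 0.41 on the log2 scale. In the fit over all 14178 detected probes with the variance trend and robust fit, that difference of -0.41 also passed (adjusted p = 0.0472). The mean of its 3 kept probes differed by 0.02, so no direction is given here for the gene. Slc1a4, which encodes the neutral amino acid transporter ASCT1, read 6.29 and 5.88 in FLT3-ITD, against 5.86 and 5.63 in pMIG. Its difference of 0.34 was close to the gap between its FLT3-ITD replicates and did not pass (adjusted p = 0.412).

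The synthesis enzymes, several of them classic ATF4 targets, lay near or below the pMIG level. Asns, which encodes asparagine synthetase, read 11.27 and 11.06 in FLT3-ITD, against 11.33 and 11.36 in pMIG, a difference of -0.18 (95% interval -0.51 to 0.15, adjusted p = 0.506). Its other probes differed by -0.05 and -0.09. In the serine pathway, Phgdh, the gene of its first enzyme, differed by -0.10 and Psat1, that of the next step, by -0.18. Shmt2 and Mthfd2, which encode mitochondrial enzymes of the folate-dependent one-carbon pathway, differed by -0.09 and 0.12. Aldh18a1, which encodes the enzyme that begins proline synthesis, differed by -0.03. The groups overlapped for Phgdh and Mthfd2, and in the other 4 genes both FLT3-ITD arrays read below both pMIG arrays. That is 66.7% of the list, against 26.8% of all genes. The nearest arrays of the 2 groups read 9.19 and 9.20 for Shmt2 and 9.34 and 9.35 for Aldh18a1. A second, dimmer Shmt2 probe differed by 0.16, with overlapping groups. The adjusted p-values of the 6 lay between 0.481 and 0.897 in limma, and their 95% intervals between -0.51 and 0.47.

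The tRNA synthetases, which join each amino acid to its tRNA, lay on both sides of 0. Gars, the gene of glycyl-tRNA synthetase, read 13.40 and 13.37 in FLT3-ITD, against 13.34 and 13.28 in pMIG (difference 0.07). Aars, the gene of alanyl-tRNA synthetase, read 11.16 and 11.41 in FLT3-ITD, against 11.23 and 11.35 in pMIG, and the groups overlapped (difference -0.01, 95% interval -0.37 to 0.36). Nars (asparaginyl) differed by 0.01, Lars (leucyl) by -0.02, Sars (seryl) by 0.08 and Wars (tryptophanyl) by 0.10. Yars (tyrosyl) differed by 0.04, Iars (isoleucyl) by -0.11 and Eprs, whose product charges 2 tRNAs with glutamate and proline, by 0.16. Tars, the gene of threonyl-tRNA synthetase, had the lowest difference of the 10, -0.24, with overlapping groups and 0.23 on its second, dimmer probe. The lowest bound of their 95% intervals was -0.68, for Tars, and the highest 0.44, for Eprs. The groups overlapped for 6 of the 10. In the other 4, Gars, Sars, Wars and Eprs, FLT3-ITD read higher on both arrays, by 0.07 to 0.16. That is 40% of the list, against 23.8% of all genes, and 0 of the 10 read lower on both, against 26.8%.

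Probes of 1 gene were compared where more than 1 passed the detection filter. There were 20 further probes for 13 members, and 15 of them differed in the same direction as the brightest probe of their gene. These 15 include the Sesn2 probe that was kept only through the FLT3-ITD arrays. The same share over all genes with more than 1 detected probe was not computed, so the count is a description only. The 5 that differed in the other direction belonged to Trib3, Shmt2, Slc38a2, Eprs and Tars. When all 14178 detected probes were fitted together in limma, 0 of the 49 member probes passed, against 0.106% of all probes, and 11 (22.4%) had an unadjusted p under 0.05, against 16.7% of all probes. The smallest adjusted p of a member probe was then 0.126.

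**Figure D4:**
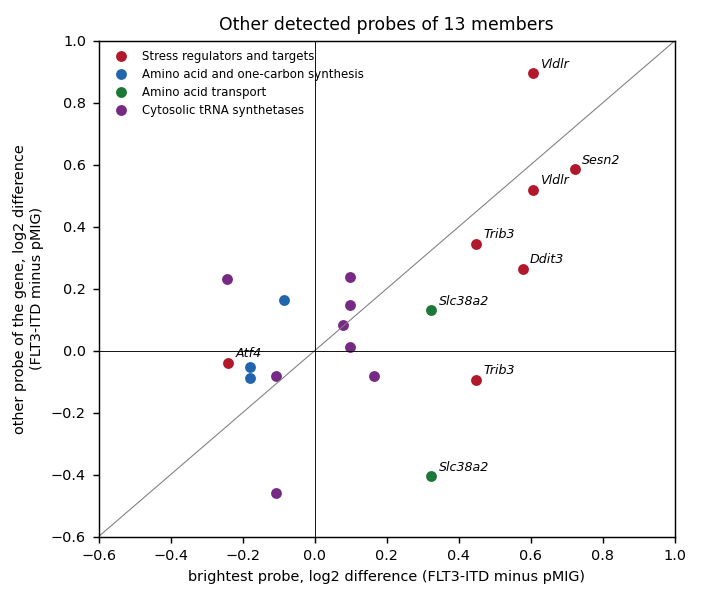
Log2 difference (FLT3-ITD minus pMIG) of 20 further detected probes of 13 members, against that of the brightest probe of the same gene, coloured by role; the grey line marks equal differences. The Vldlr probes lie on both sides of the line, at 0.52 and 0.90, and a Slc38a2 probe at -0.41 lies far below it.

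Among the rest of the pathway, the shares called were near those of all genes. Of 88 further pathway genes 65 were measured, with a median difference of -0.03, and 0 passed in limma (smallest adjusted p = 0.163). At an unadjusted p under 0.05, 6 were higher and 6 lower (9.23% each, against 8.93% and 9.09% of all genes). With the variance trend and robust fit 4 passed as higher (6.15%, against 5.19%) and 3 as lower (4.62%, against 5.28%). Upstream of ATF4, the list of eIF2 kinases, eIF2, eIF2B and phosphatase subunits had a median of 0.19 over 10 genes, of which 3 passed as higher with the trend and robust fit (30.0%, against 5.19%). Ppp1r15a, which encodes the inducible GADD34 subunit that directs eIF2 dephosphorylation, differed by 0.51 (adjusted p = 0.176, and 0.00759 with the trend and robust fit). Eif2s3x, which encodes the gamma subunit of eIF2, differed by 0.33 (0.012 with that fit), and Eif2ak2, which encodes the double-stranded RNA kinase PKR and was named after its value was seen, by 0.31 (0.0332 with that fit). Eif2b2, of the eIF2B exchange factor, differed by 0.31 and did not pass. The probe of Eif2ak4, the amino acid sensing kinase, did not pass the detection filter.

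Other partners and targets of ATF4 had a median of -0.18 over 15 measured genes. That median was -0.02 without FLT3-ITD replicate 2 and -0.08 without background correction. Of the 15 genes 12 were below 0, against 5263 of all 9948 genes. Both FLT3-ITD arrays lay below both pMIG arrays for 6 of the 15 (40%, against 26.8% of all genes). They lay above both for 0, against 23.8% of all genes. With the trend and robust fit 0 passed as higher and 2 as lower (13.3%, against 5.28% of all genes). These were Slc6a9, which encodes a glycine transporter (difference -0.50, adjusted p = 0.163, and 0.0244 with that fit), and Jdp2, which encodes an AP-1 family repressor (-0.44, and 0.0259 with that fit). Gpt2, which encodes a mitochondrial alanine aminotransferase, differed by -0.35. The 10 measured genes of other cytosolic synthetases and their scaffold proteins had a median of 0.08, led by Kars at 0.20, Hars at 0.30 and Rars at 0.15, and 0 passed with either fit. Among 12 mitochondrial synthetases the median was -0.10, and Mars2, at -0.43, passed as lower with the trend and robust fit (adjusted p = 0.0119). Nars2 differed by 0.60 and Lars2 by -0.25, and neither passed. Nars2 was dim, with a mean log2 signal of 4.95 in FLT3-ITD, against 4.36 in pMIG.

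Other amino acid transporters had a median of 0.04 over 8 genes and 0 passed with either fit. Slc7a7, a light chain gene, differed by -0.54, Slc38a9, which encodes a lysosomal arginine sensor, by 0.51 and Slc16a10 by 0.39. The branches of the unfolded protein response that run through IRE1 and ATF6, with their chaperone targets, had a median of -0.07 over 10 genes. Its sign depended on 1 array, as it was 0.07 without pMIG replicate 1 and -0.21 without pMIG replicate 2. Creld2, which encodes an endoplasmic reticulum protein, differed by 0.43 and passed with the trend and robust fit (adjusted p = 0.0022). Ern1, the gene of the sensor IRE1, differed by -0.55 and Manf by -0.33, and neither passed. Both were dim, with mean log2 signals of 4.35 and 4.72 in FLT3-ITD, against 4.90 and 5.05 in pMIG.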

How the data were processed

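Total RNA from 4 samples was hybridised to Illumina bead arrays as biotinylated cRNA, per the labels' protocols. The authors deposited a non-normalized intensity and a detection p-value for each probe, per the file headers, and how the p-value was computed is not given in the sources used here. A second deposited table holds processed log2 values whose making is not stated, with array medians of 4.79, 4.79, 4.80 and 4.79, and was used as an alternative. Its log2 values ranked as the intensities did within each array, and differed from those computed here by at most 0.232.

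The background was removed by the normexp model of limma 3.58.1 (R 4.3.3, statmod 1.5.0), fitted through the detection p-values with an offset of 16, and intensities were log2-transformed and quantile-normalized. This step assumes that the p-value falls as intensity rises (rank correlation -0.987 to -0.984). Probes with a detection p under 0.05 on at least 2 arrays were kept, which left 14178. Of all probes 24279 had 1 gene symbol in the platform annotation supplied with the data, 0 several and 2233 none. The probe with the highest mean over all arrays stood for its gene, and the symbols of the members were used as listed. The model was fitted on all 9948 genes with eBayes and Benjamini-Hochberg adjustment over all of them, two-sided, threshold 0.05. Only the model fit, with and without the variance trend and robust fit, was tested on simulated data. The simulated spread followed the trend with brightness. The background, normalization, filter and probe choice were not tested in this way. Precision is limited by the number of arrays.

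The members and lists were chosen with earlier results of these data known. Array values are given for members past 0.05 in limma, with or without the variance trend and robust fit, or at least 0.5 apart in log2 signal with no overlap, and for others as examples. Of each further pathway list the 3 genes with the smallest p are named.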

Additional observations from a re-analysis of the deposited data

How the results depend on the processing

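The count of members past the threshold in limma was 0 higher and 0 lower, and stayed so with the deposited log2 values, median scaling, no filter on dim probes, detection on all 4 arrays, the mean of probes, a replicate block and a robust fit alone, which was chosen after seeing the data. With any 1 array left out it was 0 to 0 in each direction, and so was the count over all genes. The lone array of a group is then assumed to vary like the other group. The variance model and the background step changed the counts, and the cause was not tested. With the variance trend and robust fit 9 members were higher and 1 lower (10 and 2 by probe, 4 and 3 of the further pathway genes, 516 and 525 of all genes). With the trend alone these counts were 9 and 1 (9 and 1 by probe, 4 and 3, 504 and 516 of all genes). Without background correction they were 9 and 0 (8 and 1 by probe, 3 and 3, 456 and 442 of all genes). With an offset of 50 they were 4 and 0 (3 and 0 by probe, 243 and 148 of all genes), and the 4 were Sesn2, Nupr1, Vldlr and Slc7a11. Over all genes, against 18 higher and 2 lower, the counts were 33 and 5 with the deposited values, 59 and 12 with detection on all 4 arrays, 58 and 13 with median scaling, 35 and 6 with the mean of probes, 11 and 0 with no filter, 12 and 1 with the robust fit alone and 6 and 0 under a replicate block. Same-numbered samples did not deviate together (r = -0.02 over 9948 genes, which are not independent), so the block is no sign of pairing. The median over the members was between 0.04 and 0.11 in every setting. With 1 array left out, the median lay between 0.44 and 0.61 over the stress regulators and their targets. It then lay between -0.11 and -0.03 over the synthesis enzymes and between -0.02 and 0.08 over the tRNA synthetases. The 10 members that passed with the trend kept their direction in all 15 settings. The variance, replicate block and detection filter settings left their differences as they were and could not change a direction. The 10 were also picked on these same arrays, so this is no separate support. Slc38a2, whose probes were opposed, differed by only 0.016 with the mean of probes. The members that changed direction were near 0. Shmt2 differed by 0.039 with the mean of probes. With 1 array left out, Phgdh lay between -0.23 and 0.027, Slc3a2 between -0.079 and 0.19, Aars between -0.13 and 0.12, Iars between -0.29 and 0.078, Nars between -0.12 and 0.13, Lars between -0.098 and 0.060, Yars between -0.11 and 0.19 and Mthfd2 between -0.0051 and 0.24.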
